A study of Mus musculus and Homo sapiens with 11 samples.

Results

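Heat shock proteins are molecular chaperones, proteins that help others to fold, to assemble and to avoid clumping. HSP70 proteins bind exposed stretches of unfolded chains in a cycle driven by ATP, which J-domain proteins (gene names Dnaja, Dnajb and Dnajc) start and nucleotide exchange factors end. HSP90 proteins act later, on kinases, steroid receptors and other nearly folded clients, and the receptor tyrosine kinase ErbB2 (HER2) is a known HSP90 client. The ring-shaped chaperonins fold whole chains inside a cavity: TRiC, also called CCT, folds actin and tubulin in the cytosol, and Hspd1 with its lid Hspe1 acts in mitochondria. Small heat shock proteins hold unfolded proteins without ATP. The heat shock factor Hsf1 switches on many of these genes after heat or proteotoxic stress, while chaperones of the endoplasmic reticulum (ER) answer mostly to the unfolded protein response.

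The genes described here are the 85 of 24062 listed mouse genes whose symbol begins with Hspa, Hspb, Hspd, Hspe, Hsph, Hsp90 or Dnaj, or names a TRiC subunit of the Cct series, with Tcp1, Hsf1 and Hsf2. The rule itself reads no measured value. By class they are 2 heat shock factors, 3 HSP90 genes, 11 HSP70 genes, 3 of the related HSP110 class, 7 small heat shock proteins, 2 mitochondrial chaperonin genes, 9 TRiC genes, 4 Dnaja, 13 Dnajb and 28 Dnajc genes. The other 3 (Hspb11, Hspbap1 and Hspbp1) carry the prefix but were placed in none of these classes. RNA-seq was read in cells of MMTV-ErbB2, a mouse breast cancer line named for ErbB2 driven by the mouse mammary tumour virus promoter. The table holds 3 libraries for the parental cells and 3 for the brain metastatic derivative, titled BrM 2a and called BrM below, with nothing in the labels on whether either is 1 clone. Cells were cultured in DMEM or RPMI medium with serum to 80% confluence, and libraries were made with a TruSeq or a NEBNext kit. Medium and kit are not stated for single libraries, so an effect of either cannot be told apart from an effect of the line. Libraries are numbered by the table's columns. Nothing states that they are independent cultures, and the p-values below then cover only the scatter of these 6 libraries, which may be technical.

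The libraries held 29877087 to 46683735 reads in genes. BrM replicates 2 and 3 were close to each other, with 220 of all tested genes at least 2-fold apart, while BrM replicate 1 stood 3614 and 3654 genes away from them. Parental pairs differed at 976 to 1683. Of 9 luminal epithelial markers 8 were tested, 3 higher (Krt8, Krt18 and Foxa1) and 3 lower (Cdh1, Gata3 and Krt19), with a summed level of 141728 to 156298 in BrM against 92711 to 104930; Epcam (15669 to 22353) and the driver Erbb2 (30959 to 70490) were high in every library. Krt19 read 3.83 to 29.3 in BrM against 530 to 3439. Of 6 basal mammary markers 5 were tested, 1 higher (Krt5) and 4 lower, with a summed level of 2340 to 5166 against 12028 to 14870. Trp63 read 1.91 to 25.6 against 1038 to 2314, and Acta2 had a log2 fold change of -8.83 (limma adjusted p = 0.000156). Of 10 brain cell markers 5 were tested, and Gfap, Mbp, Sox10 and P2ry12 were higher in BrM (summed level of the 10, 2950 to 3376 against 1324 to 1837). The fifth, Tmem119, read 7.45 to 192 against 251 to 492 (limma adjusted p = 0.0586), and the other 5, Aqp4 and Mog among them, did not pass 5.67 in any library of either line. Of 8 fibroblast and pericyte markers 3 were lower (summed level 210 to 1016 against 1567 to 5899), with Dcn at 0 in BrM. The 4 endothelial markers summed to at most 25.6 in any library, and of the leukocyte markers Ptprc did not pass 4.88 while Cd68 reached 2670 in BrM replicate 1. The part of these differences in the results below was not tested.

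Values are the deposited normalised read counts. Fold changes compare group means of log2(value + 1), and a gene is called where limma's adjusted p over all 13821 genes tested is under 0.05. Of the 85 genes 77 passed the filter on low values (a mean of at least 10 over the 6 libraries). The other 8 (Dnajb3, Dnajb7, Dnajb8, Dnajc5b, Dnajc5g, Hspb3, Hspb7 and Hspb9) were close to silent, with no library above 14.8. Among the 77, 10 were higher in BrM and 13 lower. Of all genes tested 12.2% were higher and 15.8% lower (28.1% together), so the share of chaperone genes called, 10 and 13 of 77, is near the background in each direction. The median log2 fold change of the 77 was 0.10, against -0.05 for all genes tested. In 23 of the 77 all BrM libraries lay above all parental ones, and in 19 below, where the same held for 22.3% and 25.7% of all genes. Among the called genes, HSP90 alpha and 6 TRiC subunits were higher and 5 members of the ER were lower. Of 81 tested genes of the same machinery outside the rule, from 7 lists of partners, 9 were higher and 13 lower, with a median log2 fold change of 0.04.

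**Figure D1:**
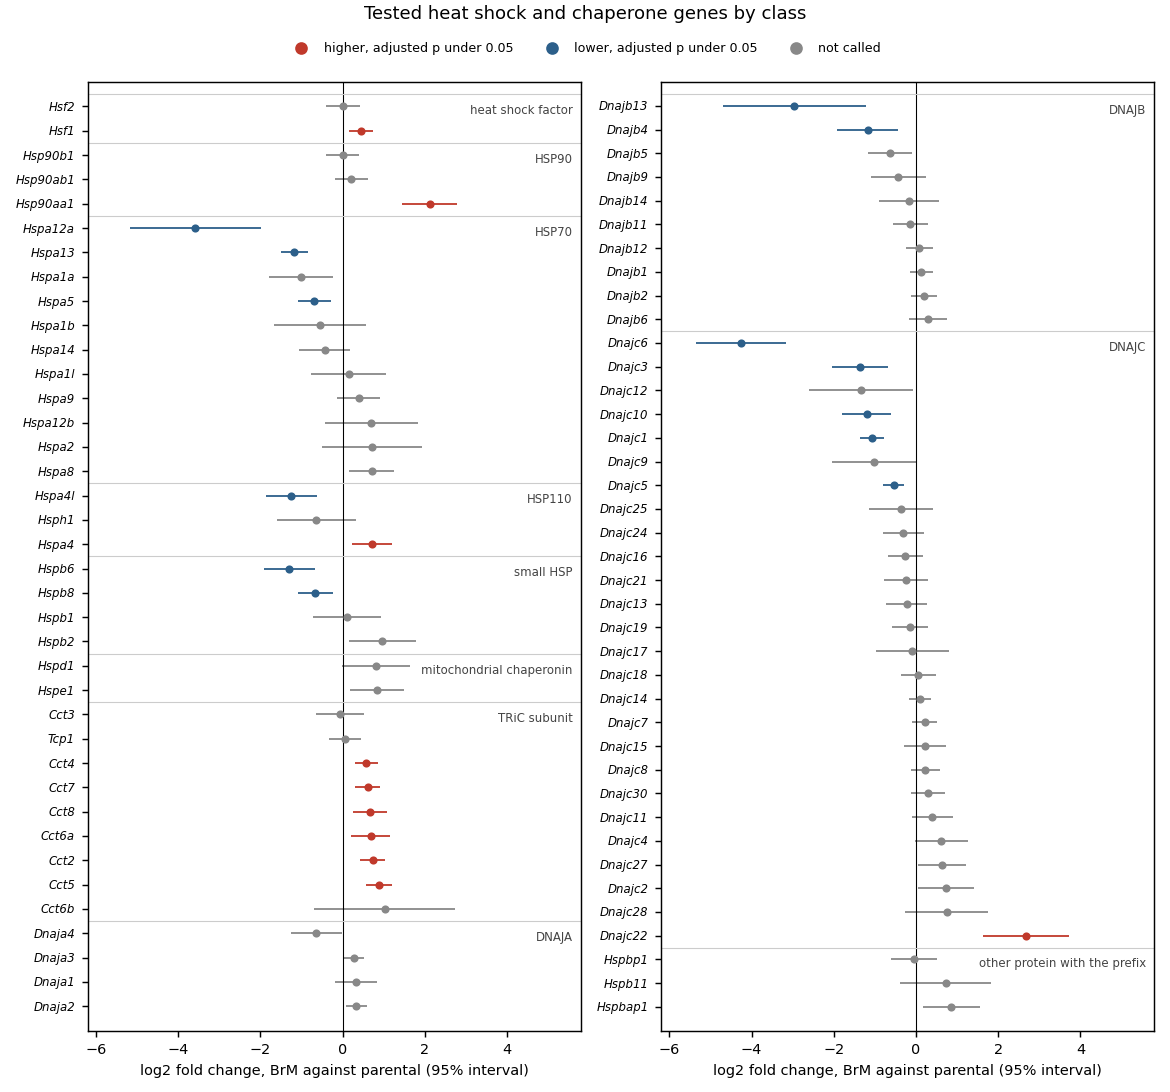
Log2 fold change of BrM against parental for the 77 tested genes, grouped by class, with 95% intervals from limma (3 libraries per group). Red points are the 10 genes called higher, blue the 13 called lower and grey the 54 not called; 6 of the red points are TRiC subunits.

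Of the 3 HSP90 genes 1 rose. Hsp90aa1, the stress-inducible cytosolic HSP90 alpha (chromosome 12, 110690605 to 110702728, minus strand, GRCm38), stood at 56126.5, 101976 and 96414 in BrM replicates 1, 2 and 3, and at 15994, 17652 and 23557 in the parental libraries. Every BrM library lay above every parental one, with BrM replicate 1 the lowest of the 3. In RNA of whole cultures, more cells with high levels and more RNA per cell cannot be told apart. The rise was 4.36-fold (log2 fold change 2.12, SE 0.28, limma adjusted p = 0.00282), and the call held without each library in turn. Hsp90ab1, its constitutive cytosolic partner, read 97223, 117904 and 116745 against 91370, 100122 and 93591, and the groups overlapped (log2 fold change 0.21, 95% interval -0.19 to 0.62, adjusted p = 0.381). Hsp90b1, the ER member also known as GRP94, read 44420, 55742 and 52526 against 55345, 53159 and 43741 (0.01, -0.40 to 0.41, adjusted p = 0.984).

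Per kilobase of transcript, the level of Hsp90aa1 was 0.443, 0.664 and 0.634 of that of Hsp90ab1 in BrM and 0.134, 0.135 and 0.193 in the parental libraries. The ratio did not overlap between groups and was 3.76 times as high in BrM on average (exact two-sided permutation p = 0.1, the smallest that 3 against 3 allows). The 2 genes share none of their 50-base words, so reads of this kind would not be split between them. In both lines Hsp90ab1 remained the more abundant transcript per kilobase (43898 ± 4611 against 25858 ± 7626 for Hsp90aa1 in BrM, SD, n = 3).

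Hsp90aa1 lies on the chromosome with the highest median change of all. The 462 tested genes of chromosome 12 had a median log2 fold change of 0.97, 86.4% of them were above 0, and 268 were called higher against 20 called lower. The chromosome's median over the parental mean was alike in BrM replicates 1, 2 and 3 (0.96, 1.00 and 1.02). Of the 462 genes 43, or 9.31%, Hsp90aa1 among them, had a log2 fold change of 2.12 or more. With each chromosome centred on its own median, an alternative added after seeing the data, Hsp90aa1 was 2.19-fold higher (adjusted p = 0.0298). The part of this chromosome-wide shift in the rise of Hsp90aa1 was not tested. The other 3 tested members on chromosome 12, named after their values were seen, were not called. Hspa2 and Dnajc27 had log2 fold changes of 0.71 and 0.63, below the chromosome's median. With chromosomes centred they were at -0.28 and -0.36, and not called. Dnajb9 had -0.43, and -1.42 with chromosomes centred, where it was called lower (limma adjusted p = 0.0154).

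**Figure D2:**
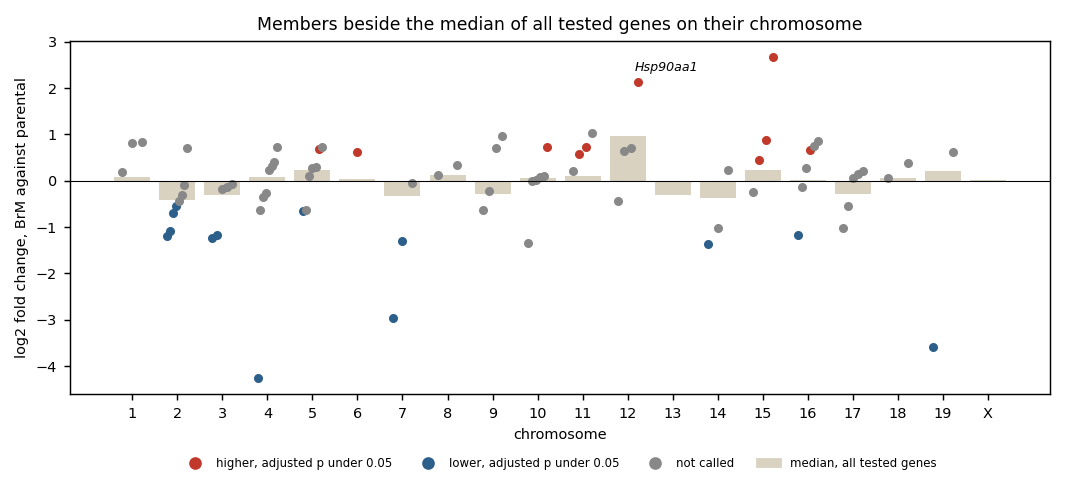
Log2 fold change of each tested member (points, coloured by call) by chromosome, with bars for the median of all tested genes on that chromosome. The bar of chromosome 12 stands at 0.97 and that of chromosome 2 at -0.42; Hsp90aa1 lies above its bar at 2.12.

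The co-chaperones that work with HSP90 were read from a list of 22 genes outside the rule, 21 of them tested. Of these 3 were higher and 1 lower (median log2 fold change 0.25), against 12.2% and 15.8% of all genes tested. Ahsa1, which speeds up the ATPase of HSP90, read 4615, 9243 and 8898 against 2246, 2410 and 3122, a rise of 2.82-fold (limma adjusted p = 0.0124). It also lies on chromosome 12, and with chromosomes centred it was 1.42-fold higher (adjusted p = 0.273). It lost its call without parental replicate 1 or 2 (0.0523 and 0.0542). Nudc was 1.42-fold higher (adjusted p = 0.0292) and the myosin chaperone Unc45a 1.59-fold lower (0.0299). The third of the higher genes was Stip1, also called HOP, which links HSP70 to HSP90 (1.48-fold, adjusted p = 0.0403, named after its values were seen). Each of these 3 lost its call with chromosomes centred (0.0575, 0.156 and 0.222 in that order) and without BrM replicate 2 or 3 or parental replicate 1 (adjusted p 0.0831 to 0.145). Nudc also lost it without parental replicate 2 (0.0952), Unc45a without parental replicate 3 (0.0867) and Stip1 without either (0.131 and 0.07). Not called were Cdc37, which brings kinases to HSP90, Ptges3 (p23) and Fkbp4 (adjusted p 0.346, 0.0731 and 0.263, named after their values were seen).

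**Figure D3:**
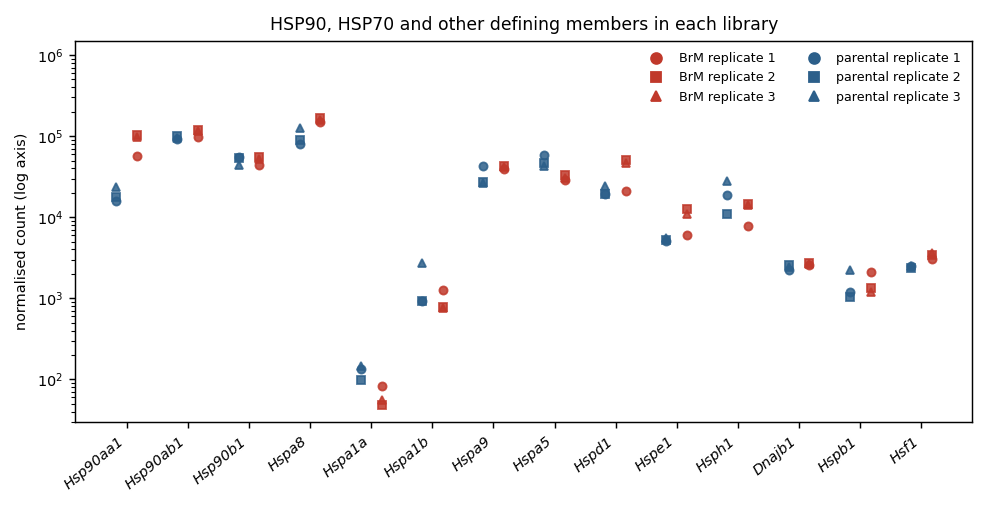
Normalised counts on a log axis in each of the 6 libraries for 14 defining genes, parental in blue and BrM in red, with 1 marker shape per replicate number. The groups stand farthest apart for Hsp90aa1, and BrM replicate 1 lies apart from BrM replicates 2 and 3 for Hspd1, Hspe1 and Hsph1.

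Of the 8 subunits of TRiC, 6 were higher in BrM, where 12.2% of all genes tested were higher. With the tissue-restricted Cct6b, the 9 TRiC genes had a median log2 fold change of 0.67. Cct5 (chromosome 15, 31590800 to 31601804, minus strand, GRCm38) read 21561, 26148 and 24346 against 12212, 13148 and 13458, a rise of 1.85-fold (log2 fold change 0.89, SE 0.13, limma adjusted p = 0.00404). Cct2 read 23392, 28838 and 26099 against 15679, 15787 and 15506 (1.66-fold, adjusted p = 0.00812). No parental library reached any BrM library for either gene, and both kept the call without each library. Cct4 read 16353, 17695 and 15594 against 11313, 11598 and 10343 (1.49-fold, adjusted p = 0.0141). Cct7 read 18905, 22574 and 21158 against 12963, 13976 and 13993 (1.53-fold, adjusted p = 0.0138). In Cct6a and Cct8 the groups were likewise separate, with BrM replicate 1 nearest to the parental line. Cct6a read 16458, 25887 and 23412 against 12202, 13675 and 14458 (1.61-fold, adjusted p = 0.0435), and Cct8 read 13780, 20014 and 18933 against 10230, 11137 and 11320 (1.59-fold, adjusted p = 0.0292).

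The remaining subunits of the ring were not called. Tcp1 read 9859, 14172 and 12552 against 10938, 12250 and 11589 (log2 fold change 0.06, 95% interval -0.33 to 0.45, adjusted p = 0.818). Cct3 read 8699, 15826 and 14837 against 12060, 13166 and 14617 (-0.06, -0.65 to 0.53, adjusted p = 0.875). For both, BrM replicate 1 was the lowest of all 6 libraries. Cct6b, the testis form of the sixth subunit, was near silent outside BrM replicate 1 (40.3 there, at most 7.65 elsewhere).

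Summed over the 8 subunits per kilobase, TRiC stood at 58798, 77911 and 71492 in BrM and at 44276, 47442 and 47826 in the parental line, a ratio of means of 1.49. The coefficient of variation across the 8 per kilobase levels was 40.8%, 33.0% and 33.3%, against 23.2%, 20.8% and 23.5%, so the subunits were less even in each BrM library. Without BrM replicate 2 the call of Cct4 was lost (adjusted p = 0.0735). Cct7 lost it without BrM replicate 2 or 3 or parental replicate 1 or 2 (0.0517 to 0.0714), and Cct6a and Cct8 without each library except BrM replicate 1 (0.0818 to 0.142 and 0.0679 to 0.107). The 8 genes lie on 8 different chromosomes, with chromosome medians between -0.30 and 0.24. With chromosomes centred, Cct6a was 1.38-fold higher (adjusted p = 0.158), and the other 5 called subunits kept their calls. Cct3 and Tcp1 lie on chromosomes with medians of -0.30 and -0.28. They were then 1.17-fold and 1.26-fold higher and not called (adjusted p = 0.524 and 0.235). Exons of Cct6a, Cct7, Cct8 and Tcp1 overlap those of a gene on the other strand (Psph, Pradc1, Usp16, and Acat3 with Mrpl18), and whether counting used strand is not given in the sources used here, so reads of the overlaps cannot be assigned with certainty.

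**Figure D4:**
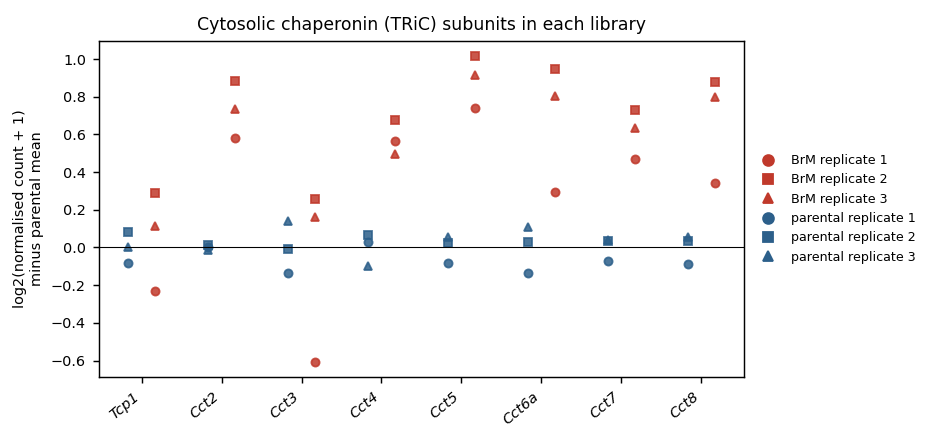
Log2(normalised count + 1) minus the parental mean for the 8 TRiC subunits in each library. All 3 BrM libraries lie above the parental ones for Cct2, Cct4, Cct5, Cct6a, Cct7 and Cct8, while for Tcp1 and Cct3 BrM replicate 1 is lowest.

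Prefoldin hands unfolded actin and tubulin to TRiC. Of 12 prefoldin and cofactor genes, 10 were tested. Of these 1 was higher and 1 lower (median log2 fold change 0.19), against 12.2% and 15.8% of all genes tested. Pfdn1, a prefoldin subunit, was 1.52-fold higher (5537, 5520 and 4902 against 3872, 3798 and 2904, limma adjusted p = 0.0284). The phosducin-like protein Pdcl, which acts with TRiC on G protein beta subunits, was 1.64-fold lower (1747, 1334 and 1273 against 2458, 2601 and 2046, adjusted p = 0.0269), and 1.24-fold lower with chromosomes centred (0.235). Pfdn1 lost its call without each library except BrM replicate 1 (0.0514 to 0.103), and Pdcl without BrM replicate 2 or 3 or parental replicate 1 or 2 (0.0900 to 0.102).

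The mitochondrial chaperonin pair moved with BrM replicate 1. Hspd1 (HSP60) read 21342, 50073 and 46836 in BrM and 19170, 19585 and 24442 in the parental line, so that BrM replicate 1 lay within the parental range. It was not called (log2 fold change 0.82, SE 0.34, limma adjusted p = 0.123). Hspe1 (HSP10) read 6094, 12548 and 11100 against 5057, 5188 and 5608, without overlap and also not called (0.84, SE 0.27, adjusted p = 0.0622). Without BrM replicate 1 they were 2.31-fold and 2.24-fold higher (adjusted p = 0.00161 and 0.000551), in a fit that calls 47.3% of all genes. The ratio of the pair per kilobase was steady, at 1.12, 1.27 and 1.35 in BrM and 1.21, 1.21 and 1.39 in the parental libraries (exact two-sided permutation p = 0.9).

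The pair lies head to head on chromosome 1, with overlapping first exons, and the window in front of Hspe1 covers most of that in front of Hspd1. A heat shock element of 3 alternating units, GAANNTTCNNGAA or TTCNNGAANNTTC on either strand, lies before the RefSeq start of both genes. It was searched in RefSeq promoter windows of GRCm38.p6 that run from 250 bases before to 50 after the start, which were at hand for 69 of the 85 genes. Hsp90aa1 had no window at hand and was not searched. The motif is present in 0.603% of 32851 windows of that length and in 0.662% of the genes they belong to, and among the 69 genes in 4: Hspd1, Hspe1, Hsph1 and Dnajb6. limma called 0 of the 4. DESeq2 called Hspd1 and Hspe1, whose windows share the element, higher, in a fit calling 36.7% of all genes. The window of Hspe1 (chr1:55087898-55088197, plus strand) is shown for this shared element, whose overlapping matches are in capitals.

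Hspe1: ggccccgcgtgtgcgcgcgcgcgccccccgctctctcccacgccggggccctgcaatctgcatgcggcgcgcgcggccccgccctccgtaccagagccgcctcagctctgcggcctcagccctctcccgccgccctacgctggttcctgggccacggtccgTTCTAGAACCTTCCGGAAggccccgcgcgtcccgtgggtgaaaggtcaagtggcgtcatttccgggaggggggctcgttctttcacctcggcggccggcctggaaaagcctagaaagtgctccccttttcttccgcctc

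A looser element of 2 units (GAANNTTC or TTCNNGAA, which lies inside every match of 3) is in 15.1% of all windows, in those of 4587 of all 27025 genes and in those of 19 of the 69 members. Of these 19, 3 were called higher (Cct2, Cct5 and Cct6a) and 4 lower (Dnajb4, Dnajc10, Hspb6 and Hspb8). The other 12 had no call, and among them Dnajc5g and Hspb3 were below the filter and not tested. Of all genes tested 28.1% were called. Of the rest of the mitochondrial machinery, Hspa9 (mortalin), the HSP70 that pulls chains into the matrix, read 39265, 42874 and 41366 against 43060, 27554 and 26159 (log2 fold change 0.39, adjusted p = 0.23). Parental replicate 1 was its highest library, and without it Hspa9 was called (adjusted p = 0.044, in a fit calling 18.1% of all genes). Of 8 members that act in mitochondria, a grouping made after values were seen, 0 were called by limma, with 2 at an unadjusted p under 0.05, both toward higher values. By count models on the recovered reads edgeR called 0 (27.2% of all genes in that fit) and DESeq2 called 3 higher (36.7% of all genes). Outside the rule, Grpel1, the exchange factor of mitochondrial HSP70, was 1.66-fold higher (5129, 4914 and 4491 against 3135, 2843 and 2795, adjusted p = 0.0061), and the disaggregase Clpb was 1.73-fold lower (1338, 1523 and 1475 against 2510, 2538 and 2449, adjusted p = 0.00464). Both kept their calls without each library. Clpb was the only gene called by limma among 9 mitochondrial chaperones and proteases outside the rule (median log2 fold change 0.04).

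Of 8 members grouped under the endoplasmic reticulum, again after their values were seen, 5 were lower and 0 higher. Of all genes tested 15.8% were lower and 12.2% higher. Of the 8, 0 had an unadjusted p under 0.05 toward higher values, and edgeR and DESeq2 also called 0 higher. Their median log2 fold change was -0.88. The grouping is not complete. Dnajb12, Dnajb14, Dnajc14, Dnajc16, Dnajc18 and Dnajc25, J-domain proteins also placed in the ER, were left out of it. They were not called (log2 fold changes from -0.36 to 0.10). Hspa5, the abundant ER HSP70 known as BiP, read 28362, 32961 and 30603 in BrM and 59111, 46726 and 43313 in the parental line, a fall of 1.61-fold (log2 fold change -0.69, SE 0.17, limma adjusted p = 0.0252). Hspa13, a microsomal HSP70 relative (chromosome 16, 75745431 to 75767104, minus strand), read 2461, 3003 and 2870 against 6535, 6615 and 5598 (2.25-fold lower, adjusted p = 0.00182). In neither gene did the groups overlap. Dnajc3 (p58IPK), a BiP partner that binds misfolded chains, read 2518, 4934 and 5038 against 9583, 9690 and 11484 (2.57-fold lower, adjusted p = 0.0146). Dnajc10 (ERdj5), which reduces disulfide bonds, read 4017, 6069 and 5932 against 15534, 12078 and 9341 (2.30-fold lower, adjusted p = 0.0139). Dnajc1 (ERdj1), a J-domain protein of the ER membrane, read 1129, 1208 and 1200 against 2575, 2364 and 2518 (2.11-fold lower, adjusted p = 0.00152). BrM replicate 1 was the lowest library for all 5.

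The other 3 of the 8, Hsp90b1, Dnajb9 and Dnajb11, were not called. With chromosomes centred Dnajb9, on chromosome 12, was called lower (2.68-fold, limma adjusted p = 0.0154, with 22.5% of all genes called). It was also called without BrM replicate 1 (0.0221, in a fit calling 47.3% of all genes). Summed over the 8, the level was 88444, 110687 and 104670 in BrM and 155969, 136900 and 123574 in the parental line, lower in every BrM library, as a description of a set formed with its values known. Hspa13 and Dnajc1 kept their calls without each library. Hspa5 lost its call without BrM replicate 2 or 3 or parental replicate 1 or 2 (adjusted p 0.0674 to 0.0899), Dnajc3 without parental replicate 2 or 3 (0.0534 and 0.0542) and Dnajc10 without parental replicate 2 (0.0559). Hspa5, Dnajc1 and Dnajc10 lie on chromosome 2, whose 1040 tested genes had a median log2 fold change of -0.42. With chromosomes centred, Hspa5 was 1.22-fold and Dnajc10 1.74-fold lower (adjusted p = 0.296 and 0.0732), and Dnajc1 was 1.59-fold lower (0.0113). The part of the chromosome's shift in these 3 results was not tested. Hspa13 on chromosome 16, where the median was 0.02, and Dnajc3 on chromosome 14, where it was -0.38, were then 2.30-fold and 1.98-fold lower (adjusted p = 0.00138 and 0.0427). Exons of Dnajc1 overlap Mllt10 on the other strand.

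The ER stress response element (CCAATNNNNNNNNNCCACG on either strand, bound by transcription factors of the unfolded protein response) is in 0.119% of all promoter windows and 0.137% of all genes. It is in those of 3 of the 69 members, 2 of them lower in BrM (Hspa5 and Dnajc3) and 1 not called (Hsp90b1). These 3 windows are shown because the genes carry the same element and differ in their calls, with the matches in capitals. They are chr2:34771840-34772139 (plus strand), chr14:118937682-118937981 (plus) and chr10:86705395-86705694 (minus), in GRCm38.p6.

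Hspa5: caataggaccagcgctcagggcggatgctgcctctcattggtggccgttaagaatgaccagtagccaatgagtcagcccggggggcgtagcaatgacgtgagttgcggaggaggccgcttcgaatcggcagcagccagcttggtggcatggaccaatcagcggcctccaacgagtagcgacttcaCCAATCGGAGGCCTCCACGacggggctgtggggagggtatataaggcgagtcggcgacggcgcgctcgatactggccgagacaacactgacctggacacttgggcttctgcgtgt
Dnajc3: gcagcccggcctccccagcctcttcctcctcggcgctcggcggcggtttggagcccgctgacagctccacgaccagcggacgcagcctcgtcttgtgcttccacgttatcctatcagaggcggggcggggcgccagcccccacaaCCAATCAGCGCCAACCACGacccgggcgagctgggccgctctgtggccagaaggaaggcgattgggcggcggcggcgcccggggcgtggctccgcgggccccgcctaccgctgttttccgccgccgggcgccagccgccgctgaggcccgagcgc
Hsp90b1: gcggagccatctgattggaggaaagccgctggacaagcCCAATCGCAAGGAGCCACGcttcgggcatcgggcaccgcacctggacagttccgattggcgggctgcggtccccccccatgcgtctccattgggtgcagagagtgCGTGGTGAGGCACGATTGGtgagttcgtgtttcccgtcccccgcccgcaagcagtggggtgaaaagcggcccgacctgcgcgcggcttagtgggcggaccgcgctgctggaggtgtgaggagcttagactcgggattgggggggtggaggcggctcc

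Hsp90b1 holds 2 matches, 1 on each strand, where Hspa5 and Dnajc3 hold 1 each. Among the partner genes the element is in Calr, Canx, Creld2 and Pdia6, of which Pdia6 was higher (named after its values were seen, 1.58-fold, limma adjusted p = 0.0317) and the other 3 were not called.

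The 14 ER chaperone and stress genes outside the rule had a median log2 fold change of -0.15. Of them 1 was higher and 4 lower, against 12.2% and 15.8% of all genes tested. Herpud1, a membrane protein of ER-associated degradation, showed the widest gap, at 2183, 1324 and 1319 against 13375, 6853 and 5130 (4.98-fold lower, log2 fold change -2.32, SE 0.39, limma adjusted p = 0.0067). Xbp1, a transcription factor of the unfolded protein response, read 3424, 3586 and 3350 against 9117, 6449 and 6406 (2.09-fold lower, adjusted p = 0.00534). Both kept their calls without each library and with chromosomes centred. The disulfide isomerases Pdia3 and P4hb were 1.60-fold and 1.57-fold lower (adjusted p = 0.0164 and 0.039; P4hb was named after its values were seen), while their relative Pdia6, on chromosome 12, was the gene that was higher. Pdia3 and P4hb each lost the call without BrM replicate 2 or 3 or parental replicate 1 or 2 (0.0562 to 0.130), and Pdia6 without BrM replicate 2 or 3 or parental replicate 2 or 3 (0.0679 to 0.115). With chromosomes centred Pdia3 and Pdia6 were not called (adjusted p = 0.222 and 0.215), and Pdia6 turned to a log2 fold change of -0.33. The stress transcription factors Atf4 and Ddit3 were not called (0.891 and 0.442, named after their values were seen), and Ddit3 read highest in replicate 1 of each line. Hyou1, the ER exchange factor and holdase, read 5137, 7697 and 7963 against 17677, 13045 and 16736 (2.31-fold lower, adjusted p = 0.00877).

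**Figure D5:**
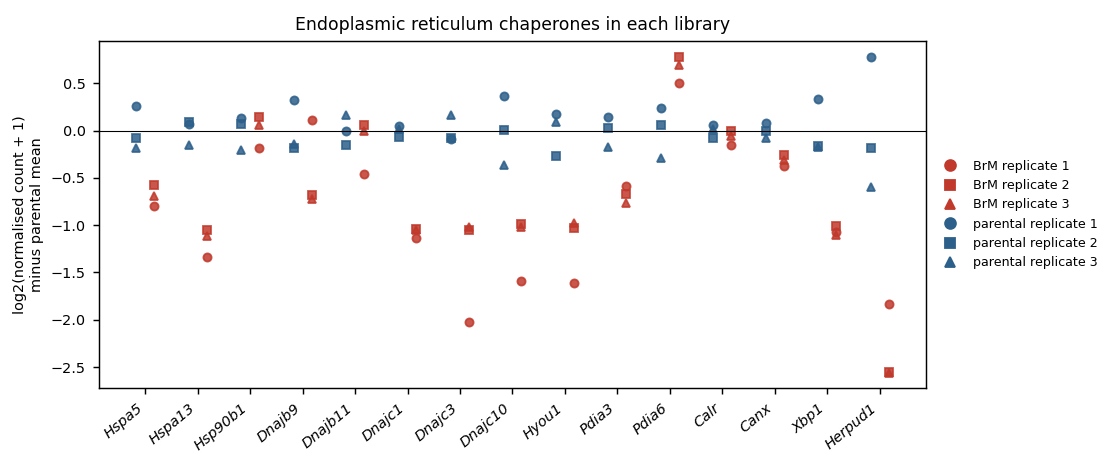
Log2(normalised count + 1) minus the parental mean in each library for the 8 members grouped under the ER and 7 ER genes outside the rule. BrM libraries lie below every parental library for Hspa5, Hspa13, Dnajc1, Dnajc3, Dnajc10, Hyou1, Pdia3, Canx, Xbp1 and Herpud1, and above for Pdia6.

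Of the 11 HSP70 genes limma called 0 higher and 3 lower (Hspa5, Hspa12a and Hspa13), against 12.2% and 15.8% of all genes tested. By edgeR it was also 0 and 3, in a fit calling 27.2% of all genes. Toward higher values 1 had an unadjusted p under 0.05 in limma (Hspa8). DESeq2 called that 1 higher and 4 lower, in a fit calling 36.7% of all genes. Hspa8, the constitutive HSC70 and the most abundant member per kilobase in both lines (66235 ± 3989 in BrM and 41141 ± 10719 in the parental line, SD, n = 3), read 148439, 167410 and 159849 against 79388, 88428 and 127661. The groups were separate, with parental replicate 3 nearest to BrM, but the gene missed the threshold (log2 fold change 0.72, SE 0.23, limma adjusted p = 0.0589). It was called without parental replicate 3 (0.0191, in a fit calling 21.1% of all genes) and without BrM replicate 1 (0.0472, in a fit calling 47.3%). With chromosomes centred it was also called (0.0237, with 22.5% of all genes called). The heat-inducible Hspa1b read 1262, 780 and 754 against 921, 927 and 2746, with parental replicate 3 the highest library (-0.55, 95% interval -1.67 to 0.57, adjusted p = 0.421). Its near-identical neighbour Hspa1a read 81.8, 48.8 and 55.9 against 134, 97.2 and 144 (adjusted p = 0.059). Since 58.8% of the 50-base words of Hspa1a also occur in Hspa1b, how reads were divided between them is uncertain. Hspa12a, a distant HSP70 relative, was low throughout, at 13.4, 2.87 and 1.86 against 48.8, 78.2 and 68.9 (log2 fold change -3.59, SE 0.66, limma adjusted p = 0.00986). It was 19.6-fold lower without BrM replicate 1, and its exons overlap Eno4 on the other strand.

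The HSP110 class, which acts as exchange factors of HSP70, split. Hspa4 (APG-2) read 15459, 24185 and 22972 against 12745, 11076 and 13658 (1.65-fold higher, limma adjusted p = 0.0417). Hspa4l (APG-1) read 1235, 1774 and 1812 against 2882, 3628 and 5050 (2.37-fold lower, adjusted p = 0.0138). The 2 genes share none of their 50-base words. Hsph1 (HSP105), the heat-inducible member, read 7754, 14469 and 14016 against 18923, 11047 and 28292, and its groups overlapped (-0.64, 95% interval -1.59 to 0.32, adjusted p = 0.279). Hspa4 lost its call without each library except BrM replicate 1 (0.0749 to 0.139) and with chromosomes centred (0.0798), and Hspa4l only without parental replicate 2 (0.0532). A list of 13 further exchange factors and ubiquitin adaptors of HSP70 had a median log2 fold change of -0.24. In it 3 were higher and 3 lower, against 12.2% and 15.8% of all genes tested. Besides Grpel1 and Hyou1 these were Bag5 (1.89-fold higher, adjusted p = 0.0129), St13 (1.57-fold higher, 0.0164), Bag1 (1.41-fold lower, 0.0334) and the ubiquitin ligase Stub1 (1.44-fold lower, 0.0282), the last 3 named after their values were seen. Bag5 lies on chromosome 12 and turned to a log2 fold change of -0.07 with chromosomes centred (adjusted p = 0.825); it lost its call without parental replicate 2 (0.0565). With chromosomes centred St13 and Stub1 also lost their calls (0.0556 and 0.232). St13 lost its call without BrM replicate 2 or parental replicate 2 or 3 (0.0516 to 0.0622), and Bag1 and Stub1 without each library except BrM replicate 1 (0.0576 to 0.12).

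Of the 2 heat shock factors tested 1 was called higher. Hsf1 read 3061, 3417 and 3604 against 2515, 2358 and 2530, higher in every BrM library by 1.36-fold (log2 fold change 0.44, SE 0.12, limma adjusted p = 0.0364). It held in 11 of 21 alternatives, the fewest of the 23 calls. It was lost without each library except BrM replicate 1 (0.0793 to 0.146), with chromosomes centred (1.16-fold, 0.328), and with no trend, with no filter and with BrM replicates 2 and 3 averaged. Hsf2 read 721, 950 and 885 against 772, 870 and 889 (0.01, 95% interval -0.40 to 0.41, adjusted p = 0.978). Of 6 related factors and binding proteins 3 were tested, and 1 was called: Hsf4, known from the lens, at 31.7, 24.9 and 24.2 against 136, 86.5 and 47.2 (3.00-fold lower, adjusted p = 0.0403). It lost its call without BrM replicate 2 or 3 or parental replicate 1 or 2 (0.112 to 0.123).

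Of 40 J-domain proteins tested, 1 was higher and 7 lower, where 12.2% of all genes tested were higher and 15.8% lower. Of the 4 Dnaja genes 0 were called by limma, with 3 at an unadjusted p under 0.05, 0 by edgeR and 2 by DESeq2. Dnaja1, a main partner of HSC70, read 6404, 10244 and 9337 against 6248, 6316 and 7935 (limma adjusted p = 0.299). Dnajb1 (HSP40), the J-domain protein most used as a readout of the heat shock response, read 2610, 2705 and 2633 against 2245, 2559 and 2463. Its 3 BrM values lay just above the parental ones (log2 fold change 0.13, 95% interval -0.15 to 0.41, adjusted p = 0.438). Dnajc22 (chromosome 15, 99093170 to 99104737, plus strand) rose most of all members by fold, at 579, 1139 and 1111 against 209, 161 and 82.1 (6.38-fold higher, SE 0.43 on the log2 scale, adjusted p = 0.00606), and kept its call without each library.

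Dnajc6 (auxilin), which uncoats clathrin vesicles with HSC70 and is best known from neurons (chromosome 4, 101496648 to 101642799, plus strand), fell most. It read 8.54, 5.74 and 9.31 against 147, 108 and 290 (19.2-fold lower, log2 fold change -4.26, SE 0.46, limma adjusted p = 0.00136), and every BrM library was under a level of 10. Dnajc5 (cysteine string protein), another J-domain protein of vesicles, read 5198, 5417 and 5545 against 7874, 8163 and 7530 (1.46-fold lower, adjusted p = 0.0117). It lies on chromosome 2 and was 1.10-fold lower with chromosomes centred (0.421); it lost its call without BrM replicate 2 or parental replicate 2 (0.0585 and 0.0549). Dnajb4 read 784, 409 and 401 against 1152, 1385 and 940 (2.26-fold lower, adjusted p = 0.0326), a call lost without each library except BrM replicate 1 (0.0567 to 0.117) and with chromosomes centred (0.101). Dnajb13, known from cilia and sperm flagella, rested on few reads: 0, 4.78 and 2.79 against 27.5, 21.4 and 15.1 (7.77-fold lower on the log2(value + 1) scale, adjusted p = 0.0258). Its fold was 4.64 without BrM replicate 1, its call was lost without BrM replicate 3 or parental replicate 2 or 3 (0.0588, 0.0887 and 0.0557), it missed the filter without parental replicate 1, and its exons overlap Ucp2 on the other strand.

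Of 7 small heat shock proteins 4 were tested. By limma 2 were called lower and 0 higher, against 15.8% and 12.2% of all genes tested. Toward higher values 1 had an unadjusted p under 0.05. That was Hspb2, at 109, 77.5 and 75.4 against 48.8, 53.5 and 31.2 (log2 fold change 0.97, adjusted p = 0.0783, named after its values were seen), which DESeq2 called. Hspb6 (HSP20), known from muscle, read 363, 231 and 244 against 678, 816 and 550 (2.46-fold lower, limma adjusted p = 0.0131), and overlaps Lin37 on the other strand. Hspb8 (HSP22), which works with Bag3 in autophagy, read 1166, 1187 and 1157 against 2300, 1569 and 1751 (1.58-fold lower, adjusted p = 0.0326). BrM libraries lay below all parental ones in both genes. Hspb1 (HSP27), the most studied of the class in breast cancer, read 2111, 1348 and 1208 against 1203, 1042 and 2221, with the groups overlapping (0.10, 95% interval -0.73 to 0.93, adjusted p = 0.854). Hspb6 lost its call without BrM replicate 2 or 3 or parental replicate 1 or 2 (0.0508 to 0.0575), and Hspb8 without BrM replicate 2 or 3 or parental replicate 1 or 3 (0.0729 to 0.103). Of 12 crystallins and other genes induced by heat shock, 11 were tested. Of these 1 was higher and 2 lower (median log2 fold change -0.22), against 12.2% and 15.8% of all genes tested. Cryab (alpha B-crystallin) read 7126, 5636 and 5351 against 3470, 3756 and 3437 (1.69-fold higher, adjusted p = 0.0112). The metallothionein Mt2 read 100, 8.61 and 5.59 against 2480, 737 and 314 (44.9-fold lower, adjusted p = 0.0173; 105-fold without BrM replicate 1). Serpinh1 (HSP47), the collagen chaperone of the ER, was 1.53-fold lower (adjusted p = 0.0428; 0.241 with chromosomes centred). Mt2 and Serpinh1 lost their calls without BrM replicate 2 or 3 or parental replicate 1 or 2 (0.0534 to 0.0641 and 0.103 to 0.113). Cryab kept its call, and its exons overlap those of Hspb2, itself not called.

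Together the 85 genes held 1.92%, 2.48% and 2.38% of all normalised counts in BrM and 1.57%, 1.59% and 1.76% in the parental line. The share was higher in every BrM library, and Hspa8, Hsp90ab1 and Hsp90aa1 had the highest levels per kilobase there. BrM replicate 1 differed at least 2-fold from the mean of BrM replicates 2 and 3 in 10 of the 77 tested members (13.0%), against 26.2% of all genes tested. Hspd1, Dnajc9, Dnajc12 and Dnajb13 were the 4 below, and Cct6b, Hspa12a, Hspa2, Hspb11, Dnajc28 and Dnajc17 the 6 above.

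In all 23 called genes the groups did not overlap. A call from 3 libraries per group favours such genes, so this is no separate support. Of the 23 calls 15 were lost without at least 1 library. The 8 that held throughout were Cct2, Cct5, Dnajc1, Dnajc22, Dnajc6, Hsp90aa1, Hspa12a and Hspa13. Without BrM replicate 1, 20 members were higher and 17 lower, in a fit that calls 47.3% of all genes. Without BrM replicate 2 it was 4 and 8 (15.8% of all genes) and without BrM replicate 3, 5 and 8 (16.7%). Without parental replicates 1, 2 and 3 it was 6 and 8 (18.1%), 5 and 5 (16.0%) and 7 and 9 (21.1%). With each library centred on its median, which moves the median of all genes from -0.05 to 0.07, 15 members were higher and 12 lower, in a fit calling 29.3% of all genes. With array weights 26 were higher and 18 lower, in a fit calling 61.4% of all genes, and with BrM replicates 2 and 3 averaged 4 and 8 (16.5%). With chromosomes centred there were 9 higher and 10 lower, 16 of them among the 23. Cct6a, Dnajb4, Dnajc10, Dnajc5, Hsf1, Hspa4 and Hspa5 were lost, and Dnajb9, Hspa8 and Hspb2 gained.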

How the data were processed

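Polyadenylated RNA of cultured mouse cells was read from 6 libraries, 3 BrM and 3 parental; 5 HCC1954 libraries were not analysed here. As deposited, the signal values are normalised read counts made by the authors; the submitters' processing notes name STAR, HTSeq, GRCh38 and GRCm38, without versions or the scaling method. All values (100%) were whole multiples of 1 read within 0.01 read, so reads were recovered for count models. Library columns could be tied to a group but not to a titled sample, and every column of values was mapped.

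Genes with a mean of at least 10 were tested with limma 3.58.1 (R 4.3.3, intensity trend) on log2(value + 1), two-sided, with Benjamini-Hochberg adjustment over 13821 genes and a threshold of 0.05. Alternatives were pseudocounts of 0.5 and 5, filters of 1, 50 and none, TMM scaling, median centring, no trend, robust moderation, array weights, a replicate block, edgeR 4.0.16 and DESeq2 1.42.0 on recovered reads, averaging BrM replicates 2 and 3, and leaving out each library. The block used the table's column numbers. Same-numbered libraries deviated together with r of 0.30, -0.09 and 0.33, so the numbers were not taken as pairs. Chromosome centring was added after seeing the data.

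The members, the 7 partner lists (88 genes), the class and marker lists and the tests were chosen with earlier results of these data known. Genes named are 24 fixed members, the 8 called members with the largest rise and the 8 with the largest fall, up to 3 more called members per class, and up to 3 called genes per partner list. Gene positions and lengths (principal transcript) came from GENCODE M21 on GRCm38, and promoter windows from RefSeq on GRCm38.p6. The tests were tested on simulated data. Plots used matplotlib 3.10.9 and Python 3.11.15.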

Additional observations from a re-analysis of the deposited data

How the results depend on the processing

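Of 23 calls, 8 held under every alternative that tested them. The 39 called genes in the list of named genes kept their direction under every alternative except Bag5, which turned to -0.0728 with chromosomes centred. Pdia6, called higher but outside that list, turned to -0.334 there. The members called higher numbered 26 with array weights (28.6% of all genes were higher in that fit), 19 with DESeq2 (17.4%) and 4 with BrM replicates 2 and 3 averaged (6.87%), and those called lower 8 with that average (9.62%). Leaving out 1 library gave 4 to 20 higher and 5 to 17 lower, the most without BrM replicate 1. With the replicate block it was 11 higher and 14 lower (12.3% of all genes were higher), with Hsf1 the 1 call lost among the 23; BrM replicate 2 correlated better with parental replicate 3 (0.311) than with its own number. Partner genes called higher numbered 9, and 15 with median centring (15.9% of all genes), 5 without trend (11.4%), 26 with array weights, 14 with DESeq2, 5 with the average, 3 with chromosomes centred (9.83%) and 2 to 20 without 1 library. Those called lower numbered 13, and 8 with median centring (13.5%), 28 with array weights (32.8%), 4 with the average and 4 to 19 without 1 library. In the last case and in the average fewer samples enter; elsewhere the cause was not tested.

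Of the 77 members 18 changed sign under at least 1 alternative, 13 of them with chromosomes centred, and 0 of the 18 were called. The values follow for the 5 of them in the list of named genes (log2 fold change). With the average, Hsf2 was -0.0497, Hsp90b1 -0.0420 and Tcp1 -0.0128. With chromosomes centred, Hsf2 was -0.0368, Hsp90b1 -0.0392, Hspb1 -0.122 and Cct3 0.229. Cct3 was 0.0595 with median centring, 0.212 with array weights and 0.00204 with DESeq2. Without 1 library Hsf2 went from -0.0757 to 0.123 (-0.0246 without BrM replicate 3, -0.0547 without parental replicate 1), Hsp90b1 from -0.0984 to 0.100 (-0.0638 and -0.0209 without BrM replicates 2 and 3), Hspb1 from -0.141 to 0.430 (-0.0117 and -0.115 without parental replicates 1 and 2), Tcp1 from -0.0579 to 0.204 and Cct3 from -0.221 to 0.211 (0.00987 without parental replicate 3). Depth limits Dnajb13, Hspa12a and Dnajc6, which rest on few reads in BrM.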
